A study of Homo sapiens with 6 samples.

Results

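Housekeeping genes are read in nearly every cell, and the neighbourhoods of 8 of them were examined in a list of chromatin loops from HAP1 cells. The genes were GAPDH, ACTB, EEF1A1, HSPA8, NPM1, NCL, RPLP0 and ENO1. Loops were chosen by position alone. A loop was taken when at least 1 of its anchors overlapped the span of a gene extended by 20 kb on each side, in hg19 coordinates. This gave 31 of the 46849 loops in the list. HAP1 is a near-haploid human line derived from the leukaemia line KBM-7, and the cells used were wild-type HAP1 sorted for a diploid DNA content, without any further treatment. Contacts were measured by Micro-C, in which micrococcal nuclease cuts fixed chromatin down to nucleosomes before neighbouring ends are ligated. The 6 replicates of the single group were not told apart in the list, so no spread between replicates could be had and no test over samples was possible. The list holds no expression values, so the line was not checked against marker genes.

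The 8 genes serve different basic tasks. GAPDH and ENO1 encode enzymes of glycolysis, glyceraldehyde-3-phosphate dehydrogenase and enolase. ACTB encodes the cytoskeletal beta-actin. EEF1A1 encodes the elongation factor that brings aminoacyl-tRNA to the ribosome, RPLP0 a protein of the ribosomal stalk and HSPA8 the constitutive chaperone Hsc70. NPM1 and NCL encode nucleophosmin and nucleolin, abundant proteins of the nucleolus. As background, many loops in mammalian nuclei form where cohesin extrudes chromatin until it meets CTCF bound at convergent sites, and Micro-C also resolves contacts among active promoters and enhancers. Housekeeping genes are known to lie mostly in gene-rich, open chromatin and to rely largely on elements close to their promoters.

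A loop here is a pair of anchors, each 5 or 10 kb wide, whose crossing pixel on the contact map holds more contacts than its surroundings. The observed count is the number of contacts in that pixel, and the expectation used below is the one the caller derived from the ring, or donut, around it. Their ratio is called the strength of the loop. Intervals on counts and strengths are exact Poisson 95% intervals of the observed count. They cover counting error only, and loops that share an anchor are not independent of each other. Binomial intervals on shares of loops, given further below, take the loops as independent and are limited in the same way. The 31 loops had a median of 48 contacts (range 10 to 141), against 31 over the whole list (range 8 to 1756). Their median strength was 4.16 (quartiles 3.22 and 5.50), against 3.55 over the list (quartiles 2.59 and 5.41). Their median span was 210 kb (range 35 kb to 1600 kb), against 160 kb. The 95% intervals of these medians, 3.31 to 4.82 for strength and 115 to 325 kb for span, include the values of the list. These comparisons with the whole list are not matched for span.

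At GAPDH, EEF1A1, HSPA8 and RPLP0 the span was short (5 or 6 kb) and an anchor took in the start of the gene. Their promoters are shown for that reason, as RefSeq sequence of build GRCh38.p14, read in the direction of the gene. Each runs from 250 bases before to 50 bases after the start given for its entry, which need not be the gene's main start. The coordinates in the names are GRCh38 and are not to be set beside the hg19 positions of the loops. Capitals mark matches, on either strand, to the TATA box (TATAAA), to the CCAAT box (CCAAT, or ATTGG on the other strand) and to the consensus of the CTCF site.
GAPDH, chr12:6535014-6535313, plus strand: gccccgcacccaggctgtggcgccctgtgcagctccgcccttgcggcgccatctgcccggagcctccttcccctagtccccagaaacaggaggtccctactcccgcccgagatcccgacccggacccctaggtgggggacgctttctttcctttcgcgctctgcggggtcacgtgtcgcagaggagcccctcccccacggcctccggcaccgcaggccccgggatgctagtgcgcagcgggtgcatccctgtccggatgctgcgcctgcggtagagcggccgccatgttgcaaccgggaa
EEF1A1, chr6:73520983-73521282, minus strand: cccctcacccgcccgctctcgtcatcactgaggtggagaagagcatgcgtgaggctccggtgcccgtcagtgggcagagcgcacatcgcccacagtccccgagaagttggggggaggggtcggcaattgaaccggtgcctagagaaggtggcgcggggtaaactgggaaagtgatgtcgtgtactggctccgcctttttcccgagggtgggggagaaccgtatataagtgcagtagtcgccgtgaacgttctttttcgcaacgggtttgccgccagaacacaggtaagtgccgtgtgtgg
HSPA8, chr11:123062087-123062386, minus strand: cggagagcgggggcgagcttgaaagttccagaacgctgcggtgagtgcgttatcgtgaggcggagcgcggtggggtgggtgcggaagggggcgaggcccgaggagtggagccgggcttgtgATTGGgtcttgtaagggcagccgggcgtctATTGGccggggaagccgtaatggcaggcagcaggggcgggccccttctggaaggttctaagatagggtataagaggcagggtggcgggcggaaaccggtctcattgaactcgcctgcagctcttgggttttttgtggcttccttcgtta
RPLP0, chr12:120201062-120201361, minus strand: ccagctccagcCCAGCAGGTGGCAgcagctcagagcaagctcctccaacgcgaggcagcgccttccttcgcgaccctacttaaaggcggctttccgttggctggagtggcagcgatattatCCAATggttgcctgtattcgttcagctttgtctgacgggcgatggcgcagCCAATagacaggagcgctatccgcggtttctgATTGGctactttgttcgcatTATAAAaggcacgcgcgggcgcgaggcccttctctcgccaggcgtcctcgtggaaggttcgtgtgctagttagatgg

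The RPLP0 promoter held the most matches. It had TATAAA 27 bases before the start, CCAAT 129 and 79 bases before it and ATTGG 47 bases before it. It also had a match to the CTCF consensus 239 bases before the start, on the gene's own strand. That 13-base consensus was found in 0.177% of the 35116 promoters in the table, and it was added to the search after these sequences had been read. A stricter 14-base CTCF core, present in 0.0655% of promoters, was not found in any of the entries of these genes. TATAAA stood in 11.5% of all promoters and CCAAT in 34.6%. HSPA8 had ATTGG 129 and 99 bases before its start. NCL, not printed here, had CCAAT 237 bases and ATTGG 109 bases before its start. Of the 2 entries of NPM1, also not printed, 1 had CCAAT 195 bases before its start. GAPDH, EEF1A1 and ENO1 had no match, which says only that these letters are not in this window. Whether an entry's start is the gene's main start was not checked, and a promoter at another start could hold these letters. Of the 8 genes, 7 had an entry in the promoter table.

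All 8 windows held at least 1 loop, whereas 52.4% of consecutive 45 kb windows laid over the covered chromosomes did. The share was 52.4 to 64.0% for windows of the widths used here, which ran from 43 kb to 64 kb. GAPDH had the most with 7 loops (95% interval 2.81 to 14.4). That lead was lost with 5 kb loops only, where GAPDH had 4 against 5 each for ENO1 and NCL, and with each q-value at or below 0.1, where GAPDH had 4 against 5 for ENO1. ENO1 and NCL had 5 each (1.62 to 11.7), HSPA8 had 4 (1.09 to 10.2), EEF1A1 and RPLP0 had 3 each (0.619 to 8.77), and ACTB and NPM1 had 2 each (0.242 to 7.22). The intervals of all 8 genes overlap. No pair of counts was tested and the windows differ in width, so the order is a description only.

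Set against all windows of equal width, the GAPDH count was exceeded by few. Of such windows, 97.1% held fewer than 7 loops and 1.57% held more. NCL stood above 89.5% of its windows, ENO1 above 85.8%, HSPA8 above 85.3%, RPLP0 above 77.1%, EEF1A1 above 74.4%, ACTB above 64.3% and NPM1 above 52.8%. The windows laid over the chromosomes start at the edge of a 5 kb bin. Those of 45 and 50 kb thus overlap fewer bins than the gene windows of these widths, at GAPDH, HSPA8, RPLP0 and NCL. Counted by anchor midpoint, the shares were 97.2% for GAPDH, 89.8% for NCL, 85.6% for HSPA8 and 77.4% for RPLP0. The median window of each width held 1 loop, and all 8 genes lay above it. Many windows lie in stretches without any loop. Among windows that held at least 1, GAPDH still stood above 94.5% of them but NPM1 above only 26.2% and ACTB above 33.2%, and 6 of the 8 genes exceeded the median of such windows.

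**Figure D1:**
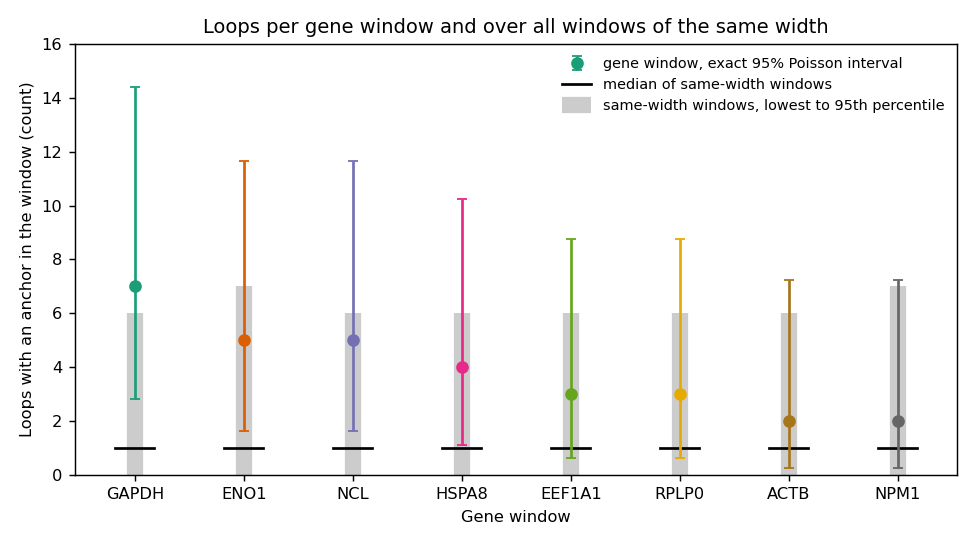
Loops with an anchor in each gene window (points, exact 95% Poisson intervals) beside all consecutive windows of the same width (grey bars from the lowest to the 95th percentile, black line at the median). GAPDH, with 7 loops, lies above the 95th percentile of its windows, and the 2 loops each of ACTB and NPM1 lie near the median of 1.

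The window anchors were sorted by their place relative to the gene span. Of the 31 loops, 23 had their anchor on the gene span (74.2%, exact binomial 95% interval 55.4 to 88.1%), among them 14 whose anchor took in the start of the gene. That interval takes the loops as independent, though several share a window anchor. The share to expect from the width of the spans was not computed, so the 74.2% is a description and no result about these genes. At ACTB, both loops used an anchor that ended exactly where the span ends on the start side. Since the spans are given to the nearest kb, whether that anchor holds the start cannot be told. The remaining 7 of the 23 covered another part of the span, and 8 anchors lay in a flank. With respect to transcription, 16 loops ran upstream and 15 downstream. In 4 genes all loops ran the same way: upstream at EEF1A1 and RPLP0, downstream at HSPA8 and NPM1. The other 4 genes had loops on both sides.

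**Figure D2:**
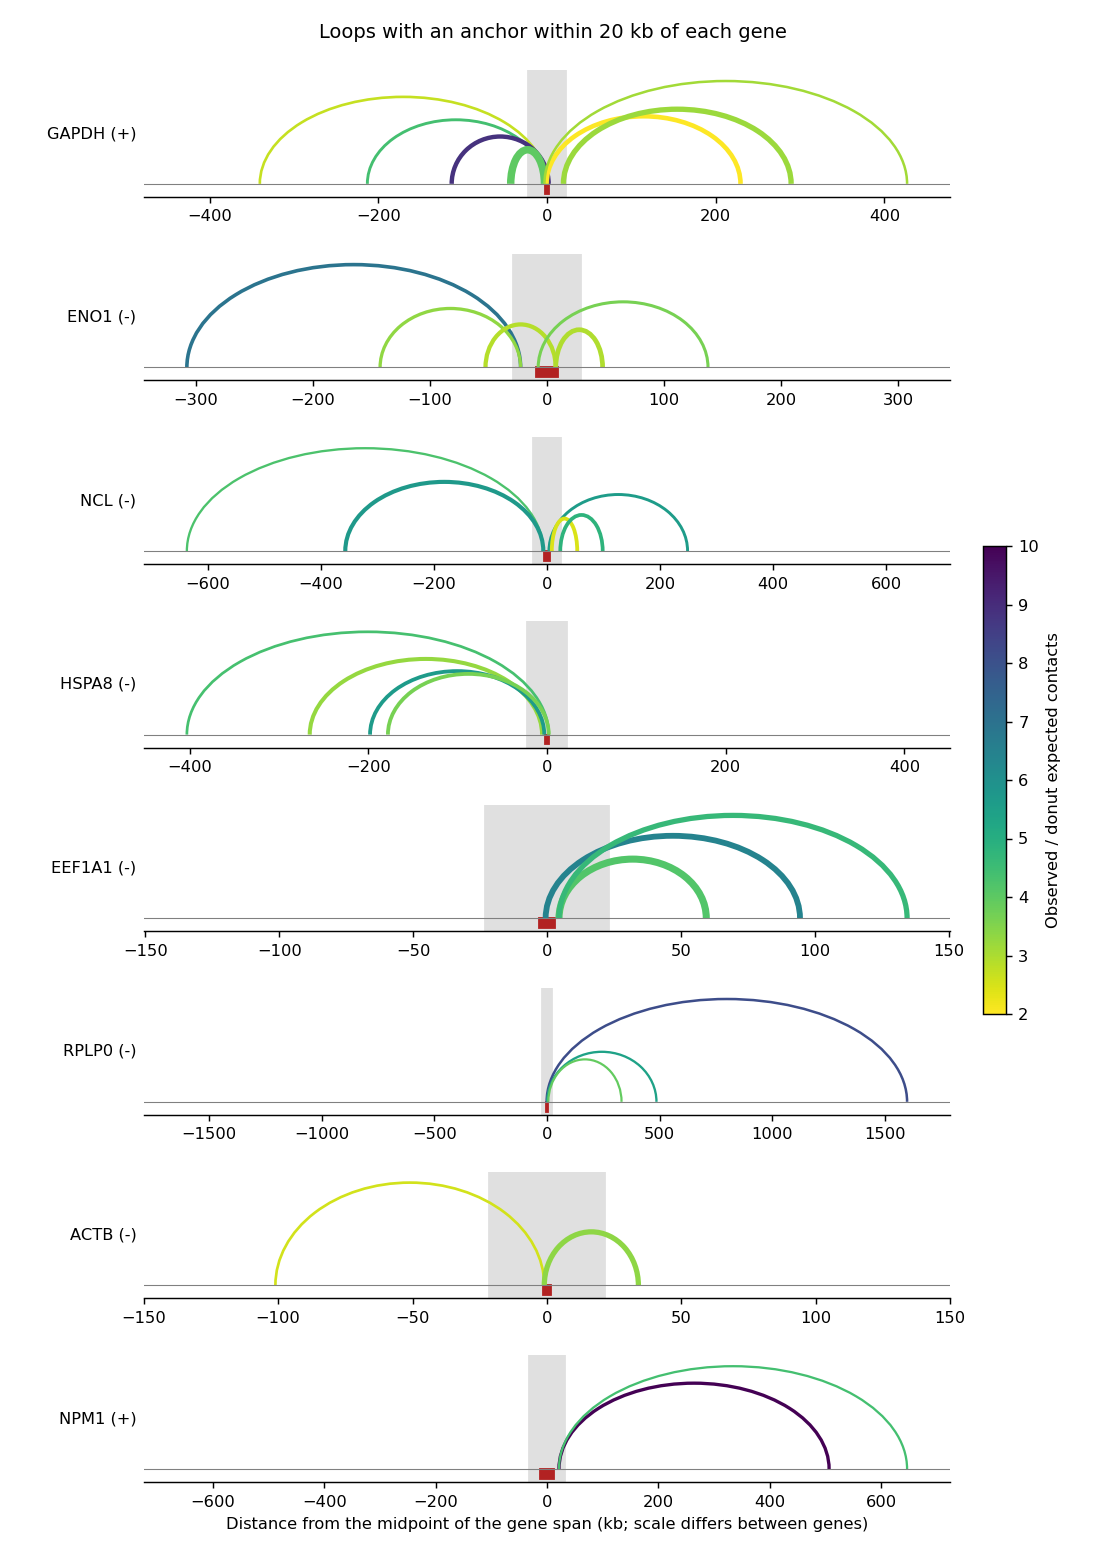
Loops of the 8 genes drawn as arcs from the anchor in the window to the partner anchor, against the distance from the midpoint of the gene span (kb, a scale of its own for each gene). The red bar is the gene span, the grey band the span with 20 kb on each side, the sign after the name the strand, the colour the ratio of observed to donut expected contacts, and a thicker line means more contacts. Arcs leave HSPA8 to lower coordinates only, and EEF1A1, RPLP0 and NPM1 to higher coordinates only.

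GAPDH, on the plus strand of chromosome 12, combined the highest loop count with the highest contact count of any single loop. A 40 kb loop to 6600001 to 6605000, upstream of the gene, had 141 contacts (118.7 to 166.3) against 35.3 expected. Of loops with 5 kb anchors and a span within 25% of that, 97.8% had fewer contacts. The strongest GAPDH loop also ran upstream, over 115 kb to 6530001 to 6535000, with 65 contacts (50.2 to 82.8) against 7.34 expected, a strength of 8.86 (6.84 to 11.3). It used the next bin, 6645001 to 6650000, which covers the rest of the gene. These upstream partners were themselves joined, by a 70 kb loop with 71 contacts and a strength of 4.58.

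The remaining 5 GAPDH loops reached farther out. Upstream loops of 210 kb and 340 kb had 27 and 21 contacts. Downstream, loops of 230, 270 and 430 kb had 70, 88 and 18 contacts. The loops of 230, 270 and 340 kb had 10 kb anchors and those of 210 and 430 kb had 5 kb ones. These counts thus come from pixels of unlike size. The 230 kb loop, with 10 kb anchors, was the weakest of all 31, at 2.03 (1.58 to 2.56). The longest, 430 kb to 7070001 to 7075000, was stronger than only 3.60% of loops of like span, with a strength of 3.12 (1.85 to 4.93). For 3 of the 7 loops at least 1 of the 4 q-values in the authors' deposited table, 1 against each surrounding of the pixel, exceeded 0.1, the highest being 0.739 for the 340 kb loop. The bin with the gene's start, 6640001 to 6645000, was overlapped by anchors of 5 loops in all, 3 with that 5 kb bin itself and 2 with a 10 kb anchor over it. The median over all anchors, counted in the same way once per loop, was 3. In the reference gene order, NCAPD2 is the next coding gene on the lower side and IFFO1 on the higher side, and CHD4, a chromatin remodeller, is the third on the higher side.

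ENO1, on the minus strand of chromosome 1, had loops of 40 to 285 kb on both sides. Its anchor at the start of the gene, 8935001 to 8940000, sent a 40 kb loop upstream with 73 contacts (57.2 to 91.8) and a 60 kb loop downstream with 61 (46.7 to 78.4), with strengths of 2.94 and 2.89. The far ends of this pair were joined too, by a 100 kb loop over the whole gene with 28 contacts and a strength of 2.72. The strongest and longest ENO1 loop was anchored 11 kb beyond the end of the gene. It spanned 285 kb to 8620001 to 8625000 with 45 contacts against 6.50 expected, a strength of 6.93 (5.05 to 9.27). The same anchor held a 120 kb loop of 37 contacts, and the partners of both were joined by a 165 kb loop with 80 contacts and a strength of 7.47. A 145 kb upstream loop from the bin at the end of the gene had 31 contacts. All 5 loops had each of their q-values in the authors' deposited table at or below 0.1. RERE and CA6 flank ENO1 in the reference gene order.

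ACTB, on the minus strand of chromosome 7, had only 2 loops in its window, both from 5565001 to 5570000, the bin that covers the span given for the gene. The shorter, 35 kb upstream to 5600001 to 5605000, had 86 contacts (68.8 to 106) against 25.6 expected, a strength of 3.36 (2.69 to 4.15). It was stronger than 87.9% of loops of like span. The other, 100 kb downstream, had 22 contacts (13.8 to 33.3) and a strength of 2.55. Its highest q-value in the authors' deposited table was 0.350. The surroundings of ACTB were much richer in loops than its window. In all, 9 loops passed over the window from one side to the other, more than over 91.8% of windows of this width, where the median was 3. The shortest of them, 65 kb long, had 77 contacts and a strength of 5.61. The one with the highest ratio, 98.5, spanned 750 kb with 47 contacts and rests on an expectation of only 0.477. With a flank of 50 kb ACTB had 11 loops, against 2 with 20 kb. FBXL18 and FSCN1, which encodes the actin-bundling protein fascin, are its coding neighbours in the reference order.

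EEF1A1, on the minus strand of chromosome 6, had the highest contact counts as a group. Its 3 loops had 131 contacts (109.5 to 155.4) at 55 kb, 100 contacts (81.4 to 121.6) at 95 kb and 86 contacts (68.8 to 106) at 130 kb, and all ran upstream. Each had more contacts than at least 90.9% of loops of like span, and strengths were 4.16, 6.43 and 4.64. The 55 kb loop was the broadest of the 31, with 38 merged pixels where the median was 3. The surroundings along the row of the map were also rich in contacts at this gene. Against the largest of the 4 expectations, the 95 kb loop had a ratio of 2.95 and the 55 kb loop one of 2.43. The partners at 74285001 to 74290000 and 74320001 to 74325000 were joined by a 35 kb loop with 54 contacts and a strength of 2.11. The count of loops was 3 at every flank from 0 to 50 kb. MTO1 precedes and SLC17A5 follows EEF1A1 in the reference gene order, so its loops ran to the side of SLC17A5.

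RPLP0, on the minus strand of chromosome 12, had the fewest contacts per loop. Its 3 loops ran upstream over 325, 485 and 1600 kb with 10 (4.79 to 18.4), 13 (6.92 to 22.2) and 18 (10.7 to 28.4) contacts. Expectations were 2.54, 2.41 and 2.21, so that each strength rests on few contacts. The 1600 kb loop was the only one of the 31 above 1 Mb and the only RPLP0 loop with 10 kb anchors. It joined 120630001 to 120640000 with 122230001 to 122240000 at a strength of 8.14 (4.82 to 12.9). It was stronger than 96.4% of the 389 loops of like span and anchor width. The 325 kb loop started 1 kb beyond the gene and was above a q-value of 0.1 against all 4 surroundings in the authors' deposited table (0.255 to 0.455). It had fewer contacts than nearly all loops of like span, only 0.372% of which had fewer. A 1110 kb loop with 14 contacts and a strength of 3.57 joined the partners of the other 2 loops. GCN1 and PXN flank the gene in the reference order.

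HSPA8, on the minus strand of chromosome 11, had 4 loops that all ran downstream, to lower coordinates. They spanned 180, 195, 260 and 405 kb and had 50 (37.1 to 65.9), 50 (37.1 to 65.9), 56 (42.3 to 72.7) and 23 (14.6 to 34.5) contacts. Strengths were 3.65, 5.63, 3.25 and 4.36, with overlapping intervals. The 260 kb loop had 10 kb anchors and the others 5 kb ones, so its contacts and strength come from a larger pixel. In the order of span, the loops were stronger than 29.0, 67.5, 90.3 and 27.5% of loops of like span and anchor width. Each of the 4 loops rested on a single pixel, whereas 8.94% of all loops did. The other 27 loops of these genes included 2 such loops, 1 at NCL and 1 at ENO1, for 6 of 31 in all (19.4%, interval 7.45 to 37.5%). The loops of 180 and 195 kb used adjoining bins at the gene, 122930001 to 122935000 with its start and 122925001 to 122930000 without it, and count as 1 loop where loops within 25 kb are joined. For the 195 kb loop the ratio was 2.43 against the largest expectation. No loop passed over the HSPA8 window. BSX, a homeobox gene, is the next coding gene in the direction of the loops, and CLMP lies on the other side.

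NCL, on the minus strand of chromosome 2, had 5 loops, and different parts of its window served different directions. The bin at the end of the gene, 232315001 to 232320000, held the 2 downstream loops, of 350 kb with 58 contacts (44.0 to 75.0) and of 630 kb with 13 (6.92 to 22.2). Their strengths were 5.69 and 4.26, and the longer one had a highest q-value of 0.309 in the authors' deposited table. The bin with the start, 232325001 to 232330000, held a 245 kb upstream loop with 28 contacts (18.6 to 40.5) and a strength of 5.61. Upstream of the gene, 1 kb and 16 kb away from it, began loops of 45 kb with 50 contacts and of 75 kb with 48. None of the partners of NCL were joined to each other. No loop passed over its window. B3GNT7 and NMUR1 are the neighbours in the reference order, and the third coding gene on the higher side is PTMA, which encodes prothymosin alpha.

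NPM1, on the plus strand of chromosome 5, was the only one of the 8 genes without a loop anchor on its span. Its 2 loops shared an anchor 7 kb beyond the end of the gene, 170845001 to 170850000, and ran on downstream. The loop of 485 kb to 171330001 to 171335000 had 38 contacts (26.9 to 52.2) against 3.77 expected. Its strength of 10.1 (7.13 to 13.8) was the highest of the 31, and 89.6% of loops of like span were weaker. The loop of 625 kb had 12 contacts (6.20 to 21.0) and a strength of 4.39 (2.27 to 7.67), with a highest q-value of 0.255 in the authors' deposited table. TLX3 and FGF18 flank NPM1 in the reference order, and the loops ran to the side of FGF18. Only 6 loops lay wholly within 500 kb on either side of NPM1, fewer than at any of the other 7 genes. Its window was passed over by a loop of 1270 kb with 12 contacts and by one of 7920 kb with 86. The 7920 kb loop, of 2 merged pixels, had a ratio of 1825 and rests on an expectation of only 0.0471.

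**Figure D3:**
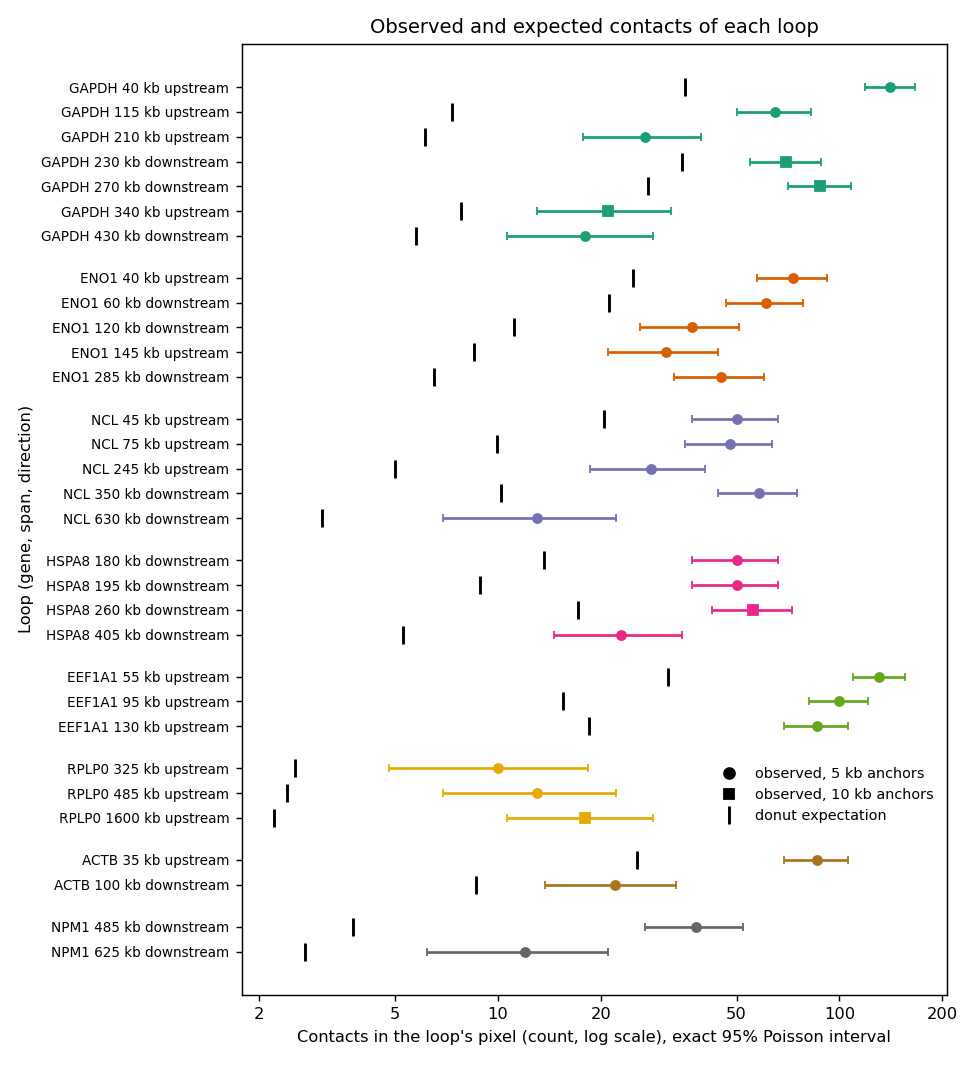
Contacts of each of the 31 loops on a log scale (circles for 5 kb and squares for 10 kb anchors, with exact 95% Poisson intervals) beside the donut expectation (black ticks). EEF1A1 loops lie between 86 and 131 contacts, RPLP0 loops between 10 and 18, and the most contacts, 141, belong to the 40 kb GAPDH loop.

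Across genes, contacts differed beyond counting error in some pairs. The lowest EEF1A1 loop, with 86 contacts, has an interval that starts at 68.8, above the upper bound of 28.4 of the highest RPLP0 loop. Spans differ between these genes too, from 55 to 130 kb at EEF1A1 and from 325 to 1600 kb at RPLP0. Loops of like span and anchor width had median contacts of 32 to 40 for the EEF1A1 loops and of 19 to 25 for those of RPLP0. Relative to loops of equal anchor width and a span within 25%, 19 of the 31 had more contacts than the median and 18 had a higher strength (58.1%, interval 39.1 to 75.5%). The EEF1A1 loops lay above the median of like loops in both measures in 3 of 3 cases. The longer loops of ACTB and NPM1 lay below it in both, and so did loops of GAPDH, NCL, RPLP0 and ENO1. Over all loops with 5 kb anchors the median strength was 3.10 at 100 kb and 4.15 at 120 kb. The bands of like loops around the 100 kb ACTB, 115 kb GAPDH, 120 kb ENO1 and 130 kb EEF1A1 loops span that step. Those around the 95 kb EEF1A1 and 145 kb ENO1 loops reach into it. The part of the step in the standing of these loops was not tested.

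**Figure D4:**
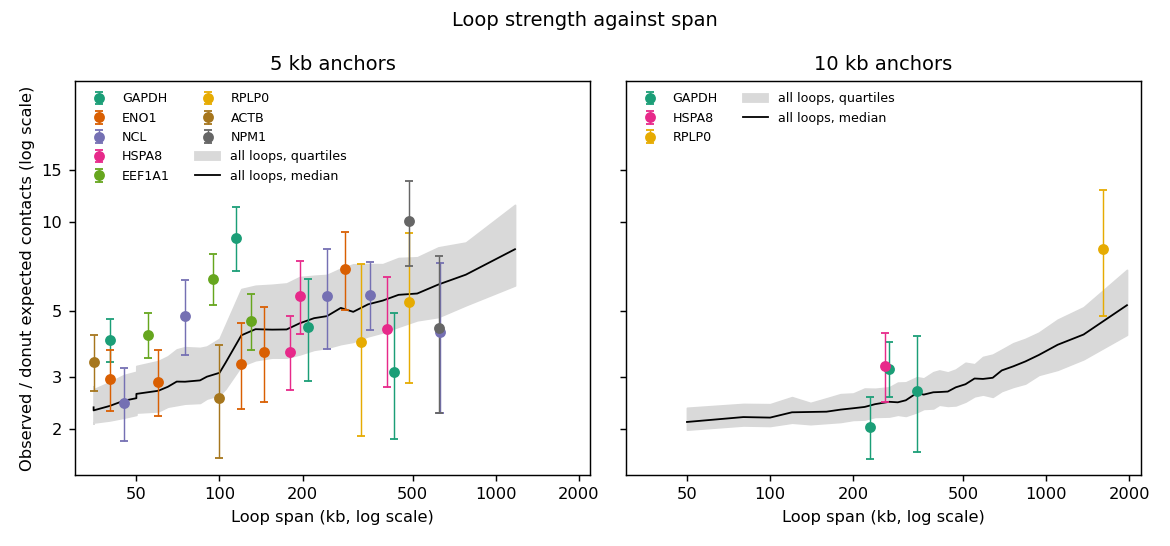
Ratio of observed to donut expected contacts of the 31 loops against span, both on log scales, for 5 kb anchors (left) and 10 kb anchors (right), with exact 95% Poisson intervals. The line and grey band are the median and quartiles of all loops in 30 bins of span. The 485 kb NPM1 loop (10.1), the 115 kb GAPDH loop (8.86) and the 1600 kb RPLP0 loop (8.14) are the highest points. The median of all 5 kb loops steps up from 3.10 at 100 kb to 4.15 at 120 kb.

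By the q-values of the authors' deposited table, 24 of the 31 loops had each of the 4 at or below 0.1 (77.4%, interval 58.9 to 90.4%), against 72% of all loops. The interval includes the share of the list. The 7 others were 3 loops of GAPDH and 1 each of ACTB, NPM1, NCL and RPLP0. Anchors were often shared. The window anchor was overlapped by an anchor of a further loop in 24 of 31 cases (77.4%) and the partner anchor in 28 of 31 (90.3%, interval 74.3 to 98.0%), against 72.6% of all anchors. Loops joining a pair of partners of the same gene were found at GAPDH, EEF1A1, RPLP0 and ENO1, 5 in all.

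Loops that passed over a window without an anchor in it were few at most of these genes. None did at EEF1A1, HSPA8 and NCL, 1 did at ENO1, 2 at GAPDH, RPLP0 and NPM1, and 9 at ACTB. Thus 3 of 8 windows were uncrossed (interval 8.52 to 75.5%), where 16.2% of all 45 kb windows were. In the window of 1 Mb around each gene, 41 loops lay wholly inside for GAPDH, 27 for HSPA8, 23 for ENO1, 20 each for ACTB and NCL, 19 for RPLP0, 13 for EEF1A1 and 6 for NPM1. The median of 2922 such windows over the list was 11 (quartiles 5 and 17), and 99.9% of them held fewer loops than the one around GAPDH. Contact depth, the donut expectation of 5 kb loops relative to loops of like span, was 1.32 times the median of the list around GAPDH and 0.666 times around NPM1. It was 1.25 around NCL and ENO1, 1.10 around RPLP0, 1.09 around ACTB, 1.02 around EEF1A1 and 0.994 around HSPA8. Depth was thus highest around GAPDH, which had the most loops over both anchor widths but not among loops with 5 kb anchors, and lowest around NPM1, one of the genes with the fewest. The part of depth in the loop counts was not tested. Depth at single loops could lie far from the median around their gene. As log2 against loops of like span, it was 0.674, 1.132 and 1.055 for the EEF1A1 loops of 95, 55 and 130 kb. For the RPLP0 loops of 485 and 325 kb it was -0.638 and -1.004. The part of this depth in the contacts of these loops was not tested either.

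The reach of 20 kb set who was counted in a few places. The outermost anchors inside it were those of the 75 kb NCL loop, 16 kb from the gene, and of the 270 kb GAPDH loop, 12 kb away. The nearest outside was an anchor 21 kb from RPLP0 with a 60 kb loop of 147 contacts and a strength of 2.36. That is more contacts than any of the 31 had, but the loop's anchor width was not compared, so the pixels may differ in size. The next anchor outside was 25 kb from ACTB, with the loops of 65 kb (77 contacts) and 130 kb (24 contacts).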

How the data were processed

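Micro-C was done on 6 replicates of HAP1 in 1 group. Per the submitters' processing notes BWA and hg19 were used, without a step being named. Per the file headers the loops came from juicer_tools 1.22.01, with the column names of the HiCCUPS caller. The pooling of replicates, sequencing depth and calling parameters are not stated. For every loop the authors deposited the raw contact count, 4 expected contact values (on the count scale), a q-value against each, the count of merged pixels, and positions and a radius in bp. Nothing in the labels says whether the replicates were separate cultures.

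The gene spans came with the choice of genes, given to the nearest kb. The members and lists were chosen with earlier results of these data known. Anchors were matched by at least 1 bp of overlap. Loop counts were set beside all consecutive windows of the same width between the first and last anchor of each chromosome. Like loops have the same anchor width and a span within 25%. For contact depth, the log2 donut expectation of each 5 kb loop was centred on the median of 1 of 40 span bins, and the median over loops within 500 kb was turned into a ratio. No p-value was computed. For each gene, the text names at least the loop with the most contacts, the one with the highest ratio and the longest, and every loop where there are 5 or fewer. Neighbouring coding genes are up to 3 on each side in the GRCh38 table, by order only. Which genes lie at partner anchors was not analysed here. The strand of ACTB is background knowledge. The counting functions were tested on simulated data. Calculations ran in Python 3.11.15 with scipy 1.17.1, pandas 2.3.3 and numpy 2.4.6; plots were drawn with matplotlib 3.10.9.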

Additional observations from a re-analysis of the deposited data

How the results depend on the processing

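The total of 31 loops stayed within 1.5 times with a flank of 10 kb or none, by anchor midpoint, with 5 kb loops only, with each q-value at or below 0.1, with more than 1 pixel, and with loops within 25 kb counted once (23 to 31 loops). It moved to 68 with a 50 kb flank and to 5 with 10 kb loops only. The number of windows above the median of their width was 6 to 8 under the other alternatives and 3 with 10 kb loops only. Counting only windows with a loop, which gave 6, was chosen after seeing the data. The median strength, 4.16 (exact 95% interval of the median 3.31 to 4.82), moved below that interval to 3.19 with 10 kb loops only, 3.27 against the horizontal expectation and 2.95 against the largest expectation. The list as a whole had a median of 2.72 against the largest expectation. With 10 kb loops only, fewer loops enter by construction. Against the largest expectation no loop can have a higher ratio than against the donut, so that median could not rise. For the median against the horizontal expectation the cause was not tested. The median span stayed within its interval, 115 to 325 kb, in each alternative.

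By gene, 48 of 72 alternative loop counts stayed within 1.5 times. The order of genes was not stable. GAPDH was no longer first with 5 kb loops only (4, against 5 each for ENO1 and NCL) or with each q-value at or below 0.1 (4, against 5 for ENO1 and 4 each for HSPA8 and NCL). With a 50 kb flank GAPDH had 13, ACTB 11, HSPA8 10, NCL and ENO1 9, NPM1 7, RPLP0 6 and EEF1A1 3. Without a flank NPM1 had 0, and with more than 1 pixel HSPA8 had 0. No paired analysis was possible because the list does not tell the replicates apart, and for the same reason no replicate could be left out. Single loops rest on 10 to 141 contacts, which limits the precision of each strength.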
